A study of Mus musculus with 12 samples.

Results

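Neurexins, neuroligins and the leucine-rich repeat transmembrane proteins (Lrrtm) are synaptic organizers, and 9 of their genes were examined here for N6-methyladenosine (m6A) in the mouse hippocampus. The 9 genes, Nrxn2, Nrxn3, Nlgn1, Nlgn2, Nlgn3, Lrrtm1, Lrrtm2, Lrrtm3 and Lrrtm4, were looked up by name in the peak lists. These lists named 17744 genes with an m6A peak in at least 1 genotype. The lists held 34 peaks under these names in WT mice and 36 in Tyrobp-/- mice, of 33622 and 34935 peaks in all. Of the 9 genes, 8 had peaks under their own name in both genotypes, and Lrrtm2 had none.

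Methylated RNA immunoprecipitation sequencing (MeRIP-seq) compares RNA fragments pulled down with an antibody to m6A (the IP library) with the same RNA before pull-down (the input library). The study asked whether loss of Tyrobp changes m6A in the hippocampus. It used male mice 6 months old that carried a deletion in Tyrobp made with TALENs, and their WT littermates. The founders of the line had been bred with C57BL/6 mice. Tyrobp encodes a signaling adaptor that microglia use, and the deletion was present in all cells. Each genotype had 3 samples with IP and input libraries, and every sample pooled the RNA of 3 mice, so spread between animals could not be seen. Peaks were called on the 3 samples of a genotype together, which left 1 value per peak and genotype and no replicate error. No difference below could therefore be set against the spread between replicates, and every p-value measures the counting of pooled reads only.

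Neurexins sit in the presynaptic membrane and reach across the cleft to neuroligins and Lrrtm proteins in the postsynaptic membrane. These contacts help to build synapses and to set their strength, and the genes have been studied widely in autism and in hippocampal plasticity. Nlgn1 acts mainly at excitatory and Nlgn2 at inhibitory synapses, Nlgn3 acts at both, and Lrrtm proteins act at excitatory synapses. In many brain mRNAs m6A lies near the stop codon and in the 3′ UTR, where it can affect how long the mRNA lasts and where it is translated.

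The 12 libraries held between 61189368 and 73554506 valid reads, and reads per peak were not among the values used, so the depth behind a peak is unknown. G and C made up 49.2% to 50.2% of the bases in WT IP libraries and 48.5% to 49.3% in Tyrobp-/- IP libraries, against 47.6% to 48.0% in the input libraries of both genotypes. Of 8 markers of hippocampal neurons, 8 had a peak in both genotypes. Of 8 microglial markers, 6 had a peak in both genotypes, and the other two, Tyrobp and Trem2, had none. All 6 astrocyte and all 6 oligodendrocyte markers had a peak in both, 2 of 4 choroid plexus markers had one in both, and 4 of 8 hypothalamic markers had one in WT against 2 in Tyrobp-/- mice. The part of base composition and of cell mixture in the results below was not tested, and in such bulk samples fewer cells of a type and less RNA per cell cannot be told apart.

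The number of peaks per organizer gene ranged from 0 to 7. A gene with any peak had a median of 2.00 peaks in both genotypes, and 6.99% of such genes in WT and 7.39% in Tyrobp-/- mice had 5 or more. Nrxn2 had 6 peaks in each genotype. Nrxn3, the longest of the 9 genes at 1612 kb, had 4 in WT and 3 in Tyrobp-/- mice. Nlgn1 had 5 in both, Nlgn2 3 and 4, and Nlgn3 7 in both. Lrrtm1 and Lrrtm3 had 2 in both, and Lrrtm4 had 5 in WT and 7 in Tyrobp-/- mice. Peaks of a gene that shared exonic bases were listed separately for Nlgn1 and Nlgn3, and with such peaks counted once the genes had 30 distinct regions in WT and 32 in Tyrobp-/- mice.

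Enrichment of the organizer peaks lay a little above the middle of the lists. Fold enrichment, the ratio of IP over input as scaled by the peak caller, had a median of 6.62 over the 34 WT peaks against 5.54 over all WT peaks. In Tyrobp-/- mice the median was 6.28 over the 36 peaks against 5.72 over all peaks. Of the organizer peaks, 21 of 34 in WT and 22 of 36 in Tyrobp-/- mice lay above the median of their list, and 5 and 6 lay above its 90th percentile (14.6 and 14.3). A false discovery rate (FDR) of 0.05 or more for IP against input was given for 2 of the WT and 2 of the Tyrobp-/- peaks, 5.88% and 5.56%, where 10.3% and 11.0% of all peaks had one.

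**Figure D1:**
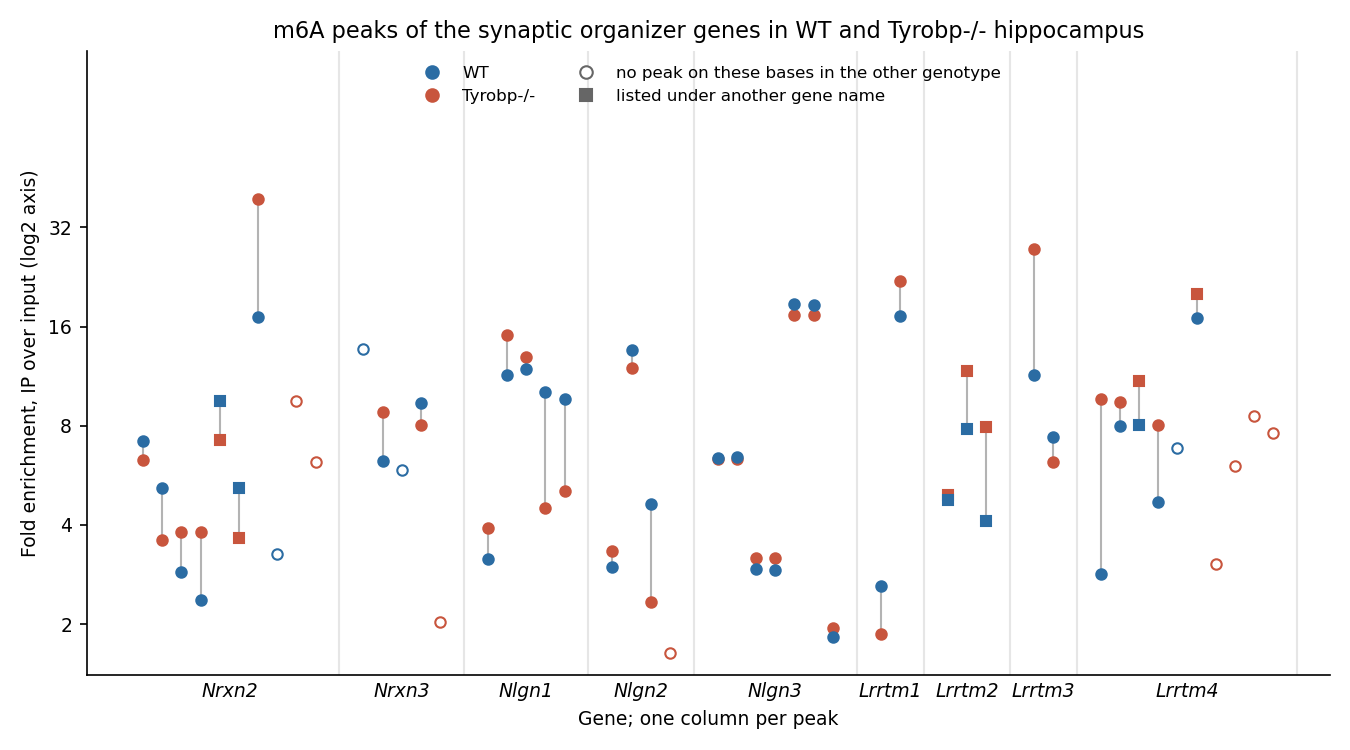
Fold enrichment of IP over input (log2 axis) at every peak named for, or lying inside, the 9 organizer genes, 1 column per WT peak and per Tyrobp-/- peak without a WT peak on its bases. Blue and red points joined by a line share exonic bases, open points have no such partner, squares were listed under another gene name, and there is 1 value per peak and genotype with no error bar. At the 5′ end Nlgn1 and Nlgn2 have the red point below the blue (10.1 and 4.51 for Nlgn1), and Lrrtm4 has it above (2.83 and 9.65).

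Annotated 5′ UTRs held a larger share of the organizer peaks than of the lists as a whole. In WT mice, 13 of the 34 organizer peaks were annotated to a 5′ UTR, 38.2% with an exact 95% interval of 22.2% to 56.4%, against 18.9% of all peaks. In the 3′ UTR there were 12 of 34, 35.3% (19.7% to 53.5%), against 47.2% of all peaks. Tyrobp-/- mice had 12 of 36 in the 5′ UTR, 33.3% (18.6% to 51.0%), against 17.3% of all peaks, and 12 of 36 in the 3′ UTR against 49.3%. Peaks in first exons made up 5.88% of the organizer peaks in WT, where all peaks gave 11.5%, and 11.1% in Tyrobp-/- mice, where all peaks gave 11.6%. The intervals (Clopper-Pearson) cover counting error only, and peaks of 1 gene share a transcript, so the shares are a description. A 5′ UTR label did not always keep a peak to the 5′ UTR, and 6 of the 13 WT and 5 of the 12 Tyrobp-/- peaks so labelled joined several exonic blocks. The clearest case was Lrrtm1, whose main peak was labelled 5′ UTR and reached the last base of its transcript.

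**Figure D2:**
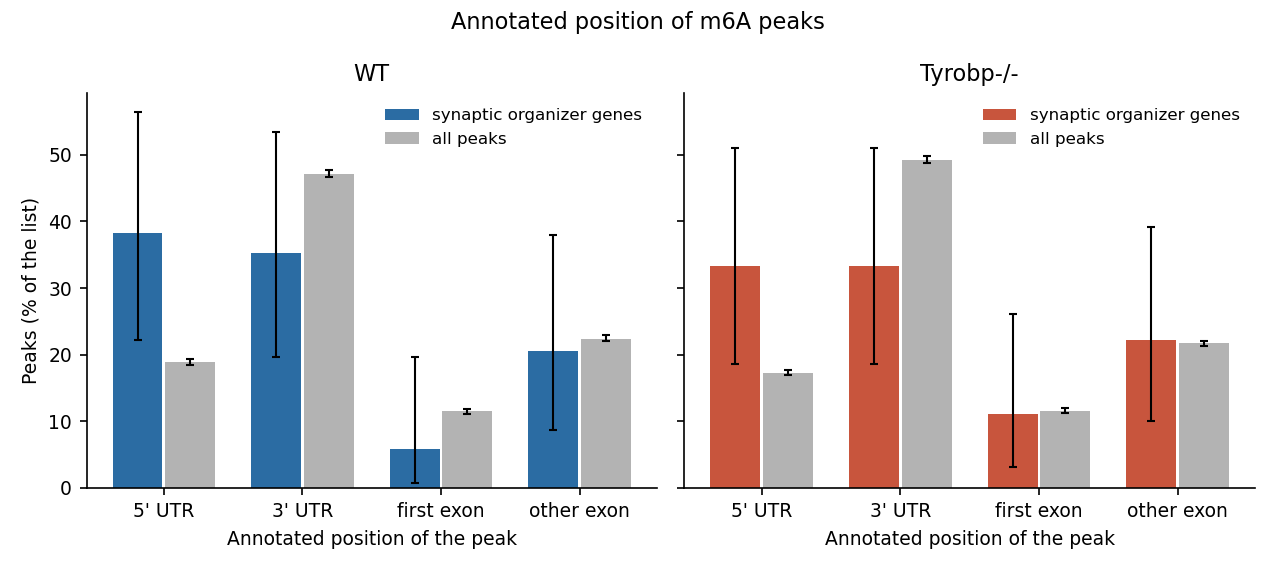
Share of peaks (% of the list) by annotated position, for the organizer genes (coloured bars, 34 WT and 36 Tyrobp-/- peaks) and for all peaks (grey bars), with exact 95% binomial intervals. The 5′ UTR bar of the organizer genes stands at 38.2% in WT and 33.3% in Tyrobp-/- mice, above 18.9% and 17.3% of all peaks.

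Among the presynaptic members, Nrxn2 carried peaks along its inner exons. Nrxn2 lies on chromosome 19 (chr19:6418756-6533217, GRCm38, 114 kb). A peak of 4 exonic blocks, chr19:6472318-6481326, had a fold enrichment of 7.21 in WT, and its counterpart at chr19:6473157-6481236 had 6.28 in Tyrobp-/- mice. The next exon peak, starting at 6482070, had 5.16 in WT and 3.59 in Tyrobp-/- mice. Both inner-exon peaks were thus lower in Tyrobp-/- mice. At an annotated 5′ UTR within the gene, WT mice had 2 small peaks, starting at 6497826 and 6498066, with 2.88 and 2.36. In Tyrobp-/- mice 1 peak of 421 bases, chr19:6497856-6498276, covered parts of both with 3.81. A peak of 301 bases starting at 6428072 was listed in Tyrobp-/- mice, with 9.53 and an FDR of 0.0309.

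The strongest peak named for Nrxn2 lay outside the gene. It spanned chr19:6535845-6536776, beyond the RefSeq end of Nrxn2 at 6533217 and inside Slc22a12, which encodes a urate transporter. Its fold enrichment was 17.1 in WT and 39.1 in Tyrobp-/- mice, the highest of any peak named for the 9 genes. Another 2 peaks named for Nrxn2 also lay outside it, starting at 6543959 in WT (3.26, FDR 0.191) and at 6540659 in Tyrobp-/- mice (6.19, FDR 0.0209). The 3′ end of Nrxn2 itself was covered by peaks that the lists named Gm14964. Of these the larger, annotated to the 3′ UTR, had 9.49 in WT (chr19:6517211-6533099) and 7.25 in Tyrobp-/- mice (chr19:6519271-6542342). The smaller, within the same bases, had 5.16 and 3.65. Read by position, the peaks inside Nrxn2 that were matched were lower in Tyrobp-/- mice at the inner exons and the 3′ end and higher at the small 5′ UTR peaks.

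Nrxn3 had 2 peaks in both genotypes, and their differences had opposite signs. Nrxn3 lies at chr12:88722701-90334935, and makes long and short forms from separate promoters, as neurexin genes do. The 5′ UTR peak at chr12:89812679-89813518 had 6.25 in WT and 8.82 in Tyrobp-/- mice. The peak at the 3′ end, chr12:90322589-90333079, which reached the last base of its transcript, had 9.36 in WT and 8.07 in Tyrobp-/- mice. The remaining 3 peaks were each listed in 1 genotype. In WT these were a peak of 210 bases in the last exon of its annotated transcript (start 89261307, 13.7, FDR 0.00275) and 1 of 91 bases (start 90072283, 5.86, FDR 0.0309) on an exon of another gene model. In Tyrobp-/- mice a peak of 91 bases began at 88722906, with 2.03 and an FDR of 0.0123. The shared 3′ peak ranked 472 by p among all WT peaks, whereas these ranked 25994 and 29624 in WT and 28680 in Tyrobp-/- mice.

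Among the postsynaptic members, Nlgn1 had opposite differences at its ends. Nlgn1, on the reverse strand at chr3:25421808-26332866, encodes the neuroligin of excitatory synapses. Its 3′ peak at chr3:25432836-25439966 had 11.4 in WT and 15.1 in Tyrobp-/- mice, and a smaller 3′ UTR peak starting at 25431877 had 3.16 and 3.92. The peak labelled 5′ UTR that covers an inner exon had 11.9 in WT (4 blocks) and 12.9 in Tyrobp-/- mice (1 block of 660 bases, chr3:26133382-26134041). The peak at the 5′ end of the gene, chr3:26331741-26332460, also labelled 5′ UTR, had 10.1 in WT and 4.51 in Tyrobp-/- mice. It was listed a second time over a longer stretch, with 9.64 and 5.08. All peaks of the gene but that at the 5′ end were higher in Tyrobp-/- mice. RefSeq places A830092H15Rik, a non-coding RNA, over the same bases, and the files give no strand for a peak, so the 2 transcripts cannot be told apart there.

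Nlgn1 had 2 promoter windows, each from 250 bases before to 50 after a RefSeq start. The upstream window (chr3:26331860-26332159, reverse strand) lay wholly inside the peak at the 5′ end in both genotypes. The m6A consensus DRACH (first A, G or T, then A or G, then AC, then A, C or T) was searched on the sense strand and occurred 6 times in these 300 bases. Over all 32851 RefSeq windows of this length the median was 5.00, and 98.4% held at least 1 match, so a match here is common. The form GGAC followed by A, C or T, found in 60.2% of all windows on the sense and 60.4% on the antisense strand, did not occur in this window. The other window (chr3:26153937-26154236) shared 0 bases with a peak of either genotype and held 7 matches to DRACH and 1 to GGAC followed by A, C or T. The 6 matches are shown with their flanks, since among the windows at hand only this one lay wholly within a peak (RefSeq, GRCm38.p6, 5′ to 3′, consensus in capitals). The last 3 printed stretches overlap each other on the genome. All 6 lay in the part of the window before the RefSeq start that defines it. The RefSeq span of Nlgn1 extends beyond them, to 26332866, and whether a transcript covers them was not tested.
Nlgn1 chr3:26332106-26332126: gcataagaAGACCtacgcggc
Nlgn1 chr3:26332079-26332099: gttttttaAAACCcacctttt
Nlgn1 chr3:26332045-26332065: tcctcgatTAACTcctgctct
Nlgn1 chr3:26332022-26332042: ggatgcgtTAACCgaacagac
Nlgn1 chr3:26332017-26332037: cgttaaccGAACAgacctttt
Nlgn1 chr3:26332013-26332033: aaccgaacAGACCttttgatg

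Windows of 6 of the 9 genes were at hand, 10 in all, with none for Nrxn2, Nlgn3 and Lrrtm2. Outside Nlgn1, a match with its whole flank inside the peaks of both genotypes was found in 2 genes, and they are given because their peaks are described below (same source and capitals). A match does not show that the adenosine is methylated.
Lrrtm3 chr10:64090239-64090259, reverse strand: ttacagaaTGACAgtctgcgg
Lrrtm4 chr6:80019638-80019658, forward strand: tacaggagAGACCaaataaga

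Nlgn2 was lower in Tyrobp-/- mice at its start and, less so, at its main 3′ peak. Nlgn2, on the reverse strand at chr11:69823123-69837784, encodes the neuroligin of inhibitory synapses and spans 14.7 kb. Its 5′ UTR peak had 4.64 in WT over 481 bases, chr11:69837304-69837784, and 2.33 in Tyrobp-/- mice over 271 bases, chr11:69837454-69837724. The WT peak thus reached the first base of the gene and the Tyrobp-/- peak stopped short of it. The main 3′ peak had 13.6 in WT (chr11:69824590-69827262), and the log2 ratio of Tyrobp-/- over WT fold enrichment was −0.18 there against −0.99 at the 5′ UTR. The peak at the very 3′ end, starting at 69823122, had 2.99 and 3.34. A weak peak of 151 bases starting at 69823631, with 1.63, was listed in Tyrobp-/- mice.

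No matched peak of Nlgn3 differed between the genotypes by more than 0.15 in log2 fold enrichment. Nlgn3, on chromosome X (chrX:101299179-101321350), acts at both kinds of synapse. Its 3′ UTR peak was among the best supported of the series, ranking 97 and 106 by p in WT and 115 and 118 in Tyrobp-/- mice for its 2 listings. The fold enrichment of that peak was 18.7 and 18.6 in WT and 17.3 for both listings in Tyrobp-/- mice. The inner-exon peak starting at 101317958 had 6.40 in WT and 6.35 in Tyrobp-/- mice, and the next, starting at 101319713, had 2.93 and 3.25. Each of these 3 regions was listed separately for 2 overlapping gene models, so 6 listings in a genotype stand for 3 regions. A weak peak beyond the RefSeq end of the gene, starting at 101325215 in WT, had 1.83 in WT and 1.94 in Tyrobp-/- mice.

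Of 8 matched WT peaks named for Lrrtm genes, 6 were higher and 2 lower in Tyrobp-/- mice. Over all 26713 matched peaks 55.7% were higher, and no test of the group was run. Lrrtm1 to Lrrtm3 each lie within an intron of an alpha-catenin gene (Ctnna2, Ctnna1 and Ctnna3, in that order) on its opposite strand. Lrrtm1, at chr6:77229210-77259915, binds neurexins at excitatory synapses. Its main peak, chr6:77243165-77257791 in WT, covered 2557 exonic bases and ranked 70 by p among all WT peaks and 64 among all Tyrobp-/- peaks. Its fold enrichment was 17.2 in WT and 22.0 in Tyrobp-/- mice. The small peak ahead of it, chr6:77242689-77242838, had 2.61 and 1.87. None of the peaks named for the host gene Ctnna2, 3 in WT and 5 in Tyrobp-/- mice, lay inside Lrrtm1.

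Lrrtm2, a neurexin receptor with a short gene of 6.02 kb (chr18:35209003-35215024), had no peak under its name but was not without m6A signal on its bases. Of the 4 peaks named for its host gene Ctnna1 in each genotype, 3 lay inside the Lrrtm2 span. The tables used give no strand for Lrrtm2, so its ends are named here by coordinate. The first, at the higher-coordinate end, was chr18:35214605-35215024 in WT, where it had 4.10, and it had 7.91 in Tyrobp-/- mice. The second and broadest had 7.80 in WT (chr18:35212568-35214365) and 11.7 in Tyrobp-/- mice. The third, near the lower-coordinate end, had 4.76 and 4.93. All 3 were higher in Tyrobp-/- mice, the third by little. Their labels followed the annotation of Ctnna1, and without a strand for a peak they cannot be assigned to either gene from the files.

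**Figure D3:**
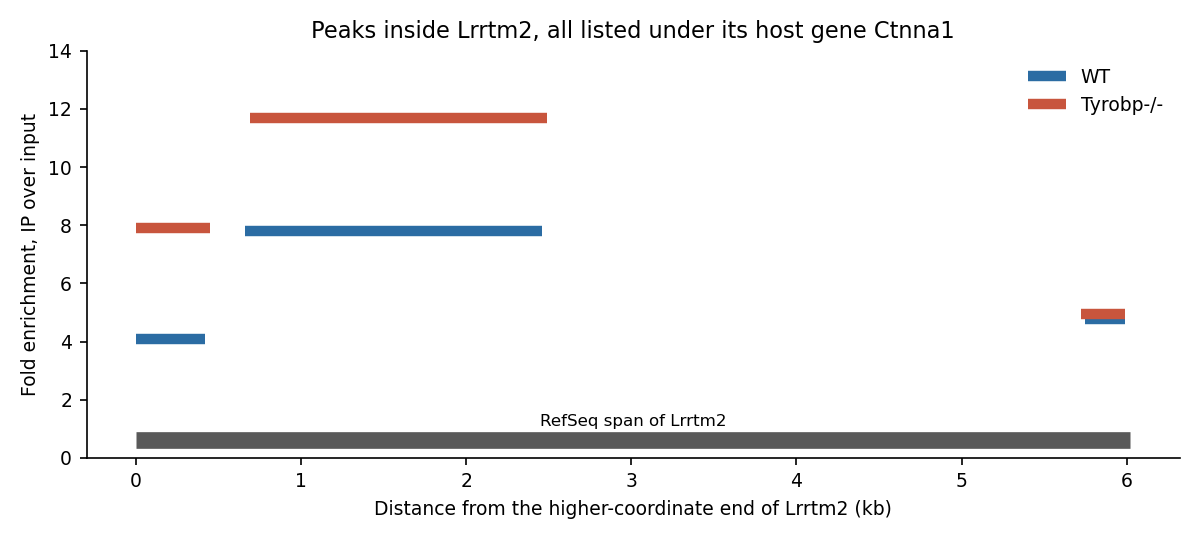
Peaks inside the RefSeq span of Lrrtm2 by distance from its higher-coordinate end (kb) and fold enrichment of IP over input (linear axis), blue for WT and red for Tyrobp-/- mice. Each bar is 1 peak with its extent, and all were listed under Ctnna1. The red bars lie above the blue at that end (7.91 and 4.10) and over the broad peak (11.7 and 7.80), and nearly meet at the far end (4.93 and 4.76).

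Lrrtm3 showed a large difference whose 2 peaks did not cover the same bases. Lrrtm3 lies on the reverse strand at chr10:63928497-64090255. In WT its main peak ran over 3 blocks and 2515 exonic bases (chr10:63929759-64089828) with a fold enrichment of 11.4. In Tyrobp-/- mice the peak on these bases had 27.6 but was cut to 2 blocks and 1438 exonic bases (chr10:63929759-64088424). The WT main peak was labelled 5′ UTR and this Tyrobp-/- peak 3′ UTR, so the pair counts under the 5′ UTR among matched WT peaks. The rest of the WT peak fell into the next Tyrobp-/- peak, chr10:64088483-64090277, which had 6.22 over 1468 exonic bases, 1019 of them shared with the WT main peak. The WT peak at the start of the gene, chr10:64089978-64090277, had 7.38. The higher value of the 3′ part and the lower value of the 5′ part in Tyrobp-/- mice thus came with a shifted boundary, and its part in the difference was not tested.

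Lrrtm4, which binds heparan sulfate on its partners, had its largest difference at the start. The gene spans 791 kb (chr6:80018858-80810162). Its 5′ UTR peak, chr6:80018877-80019482, had identical bounds in both genotypes and a fold enrichment of 2.83 in WT and 9.65 in Tyrobp-/- mice. The next peak, from 80019632, had 7.98 in WT and 9.45 in Tyrobp-/- mice. A further listing on its bases, named Gm4409, had 8.06 and 10.9. A 3′ UTR peak of 180 bases, chr6:80024747-80024926, had 4.69 and 8.06. All matched Lrrtm4 peaks were higher in Tyrobp-/- mice.

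The distal 3′ UTR peak of Lrrtm4 changed its name between the lists. In WT it was named Lrrtm4 (chr6:80809004-80810083) and had 17.0. In Tyrobp-/- mice the peak on the same 1080 bases was joined to a distant block, named Gm44240 (chr6:80025886-80810143), and had 20.1. Matched by name alone, this strong WT peak would have looked lost in Tyrobp-/- mice. Such a change of name was found at 1 of the 30 matched organizer peaks (3.33%) and at 3.28% of 26713 matched peaks in all. The larger number of Lrrtm4 listings in Tyrobp-/- mice came from 4 small peaks on single-exon models of other genes in its intron, of 60 to 299 bases and with fold enrichment between 3.05 and 8.58. Their FDR ranged from 0.000363 to 0.173. WT mice had 1 such peak, of 61 bases, with 6.84 and an FDR of 0.275.

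Across the 9 genes most peaks were shared, and the direction was mixed. A Tyrobp-/- peak overlapped 31 of the 34 WT peaks, and 28 of the 36 found in Tyrobp-/- mice met a WT peak. On exonic bases 30 of the 34 WT peaks had a partner, as had 26713 of all 33622 WT peaks. No such share over all Tyrobp-/- peaks is given here. Of the 30 matched organizer peaks, 17 were higher and 13 lower in Tyrobp-/- mice. The median log2 ratio of Tyrobp-/- over WT fold enrichment was 0.12, with quartiles of −0.19 and 0.39. All 26713 matched peaks had a median of 0.08, and 55.7% of them were higher in Tyrobp-/- mice, against 56.7% of the organizer peaks. The medians of the organizer peaks were 0.24 over 13 peaks in 5′ UTRs, 0.16 over 11 in 3′ UTRs and −0.01 over 6 in other exons, where all peaks gave 0.02, 0.11 and 0.04. As a group the organizer peaks thus lay close to the rest. Peaks outside the RefSeq span of the gene they were named for made up 3 of 34 and 3 of 36, 8.82% and 8.33%, against 5.48% and 5.70% of all peaks with a RefSeq symbol. With those peaks and the ones in single-exon models of other genes left out, 29 peaks remained in each genotype and the median log2 ratio was 0.12.

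The deposited table that compares the genotypes peak by peak held 7 rows under these names of 5640 in all. It gives a log2 fold change of enrichment with a p-value and an FDR from the peak caller's test on pooled reads, and it holds few peaks with a log2 fold change near 0 (2 of 5640 between −0.1 and 0.1), so peaks without a difference can hardly be read from it. Its sign was checked against the lists. Of 3604 rows with a peak in both lists, 91.5% had the sign of the ratio of fold enrichments, and 6 of 6 organizer rows did.

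None of the 7 rows passed a fold change of 2 with p below 0.05, where 9.01% of all rows passed as higher and 5.57% as lower in Tyrobp-/- mice. The Lrrtm4 5′ UTR peak, with a log2 ratio of 1.77 between the lists, and the Lrrtm3 main peak, with 1.28, had no row. By which rule peaks entered the comparison is not stated, so whether these peaks were tested between the genotypes is unknown. At p below 0.05 with any fold change, 1 of the 7 rows was higher, against 43.9% of all rows, and 5 were lower, against 26.1%. At an FDR below 0.05, 5 of the 7 passed, against 55.0% of all rows. The median log2 fold change of the 7 rows was −0.35, and that of all rows 0.42. These rows came from 4 of the 9 genes, so they do not stand for the family.

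The lowest value of the 7 was at the 5′ UTR of Nlgn2. This row (chr11:69837364-69837754) had a log2 fold change of −0.86, with 1.82e-06 as its FDR. Its 3′ row had −0.35 with an FDR of 6.31e-52, the small FDR going with a small change. Nlgn1 had −0.65 at its 5′ end, with an FDR of 0.0372, and 0.41 at the small 3′ UTR peak, where p was 0.0132 and the FDR 0.0525. Nrxn2 had −0.43 over its inner exons (FDR of 7.94e-12) and −0.21 in a row over its 3′ end (FDR of 1.58e-27). That 3′ row, chr19:6517181-6542342, ran on past the RefSeq end of Nrxn2 at 6533217. A row of 90 bases in the Lrrtm4 intron had 1.58 with a p of 0.296 and an FDR of 0.447, and did not pass. Nrxn3, Nlgn3, Lrrtm1 and Lrrtm3 had no row.

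By position, 4 more rows lay in the organizer genes, under other names. The 2 rows inside Lrrtm2, named Ctnna1, had log2 fold changes of 0.67 at its higher-coordinate end (FDR of 1.29e-07) and 0.27 over the broad peak (FDR of 3.63e-09). The distal 3′ UTR row of Lrrtm4, named Gm44240, had 0.58 (FDR of 1.51e-08). A row in the 3′ exons of Nrxn2, named Gm14964, had −0.42 (FDR of 6.92e-05). The rows in Lrrtm2 and the distal Lrrtm4 row thus had higher enrichment in Tyrobp-/- mice, and those in Nlgn2 and Nrxn2 lower. The median over the 11 rows was −0.21. The 0.27 of the broad Lrrtm2 peak lay above 0 but below the median of all rows.

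**Figure D4:**
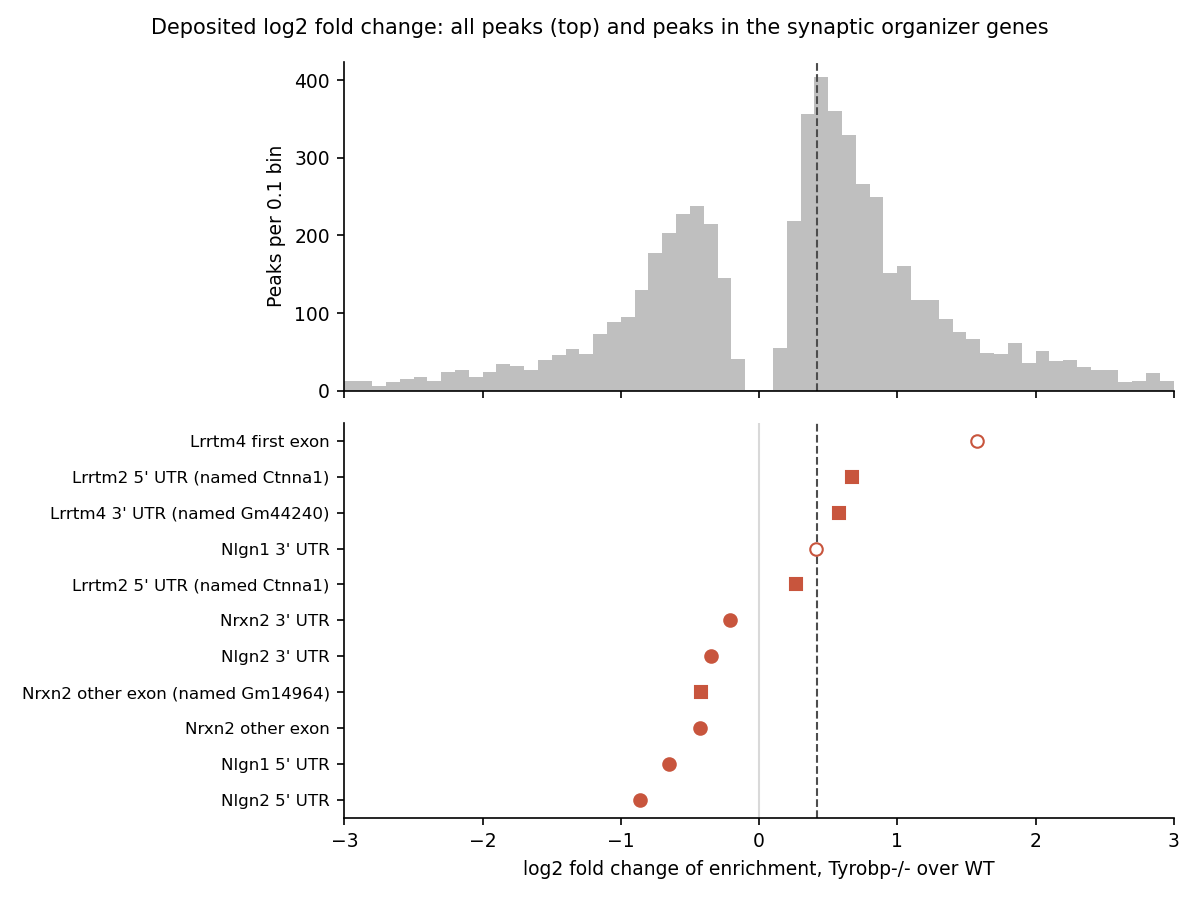
Deposited log2 fold change of enrichment, Tyrobp-/- over WT, for the rows of the table that fall within the axis (top, number of peaks per bin) and for the 11 rows in the organizer genes (bottom). The dashed line is the median of all rows (0.42), filled points have an FDR below 0.05, and squares were listed under another gene name. Nlgn2 (−0.86 and −0.35), Nrxn2 and the Nlgn1 5′ UTR lie below 0, and Lrrtm2 and Lrrtm4 above it.

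Of 13 ligands and partners of neurexins, such as cerebellins and neurexophilins, 12 had a peak in WT and 13 in Tyrobp-/- mice. Their 24 matched peaks had a median log2 ratio of −0.01. Of their 3 rows in the comparison 1 was higher and 1 lower at p below 0.05, against 43.9% and 26.1% of all rows. None passed p below 0.05 and a fold change of 2 together, and the row of Nxph1, a neurexophilin named after its value was seen, had a log2 fold change of −3.0 with a p of 0.345. Of 7 partners of neuroligins and Lrrtm proteins, 6 had a peak in both genotypes and Gpc4, a glypican, had none. Their 22 matched peaks had a median of −0.01. Both of their rows were in Dlg4, the gene of the postsynaptic scaffold PSD-95, with a log2 fold change of 0.63 (FDR of 1.26e-53) and −0.47 (FDR of 1e-123) at 2 places in the 3′ UTR. Of 29 other synaptic organizers, 27 had a peak in WT and 28 in Tyrobp-/- mice, and Lrfn4 had none. Their 63 matched peaks had a median of 0.11. Of their 16 rows, in 9 genes, 8 were higher and 3 lower at p below 0.05, again against 43.9% and 26.1% of all rows. Among the lower rows, that of Lrfn1 stood at −0.29 with a p of 3.47e-08. In the peak lists its fold enrichment was 19.1 in WT and slightly higher in Tyrobp-/- mice, again the opposite sign. The row past both thresholds was in a first exon of the latrophilin gene Adgrl2, with 1.30, a p of 0.0115 and an FDR of 0.0479.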

How the data were processed

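Hippocampal RNA of WT and Tyrobp-/- mice was measured by MeRIP-seq. The authors deposited read counts per library with the percent of valid bases and of G and C. They trimmed reads with fastp, aligned them with HISAT2 to the GRCm38 mouse genome, called peaks with exomePeak on the 3 samples of a genotype together, and annotated them with ChIPseeker. For each peak the authors deposited a fold enrichment ratio of IP over input, its p-value, and log10 values of p and FDR, stored as a score. For the table between genotypes the authors deposited a log2 fold change, a p-value and an FDR score, and these are the peak caller's values, with no test refitted.

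Peaks were taken by gene name, and matched between genotypes by the largest overlap of exonic blocks of at least 1 bp. Gene spans, windows and sequences were from RefSeq (GRCm38.p6). Spans were compared without strand, since the files give none for a peak. The genes and lists were chosen with earlier results of these data known, and every gene of the list is described. Partner genes are given values where a peak passed both thresholds. The exceptions, named after their values were seen, are Dlg4, Nxph1, Nxph3, Lrfn1 and genes under which organizer peaks were listed. A row was called at p below 0.05, unadjusted, with a fold change no smaller than 2. Shares have exact 95% binomial intervals, for counting error only. Depth was 61189368 to 73554506 valid reads per library. Alternatives were stricter peak calling, a fold enrichment of at least 4, reciprocal overlap of 50%, other thresholds, centring and matching by position. Matching was tested on simulated peaks. The software was matplotlib 3.10.9, pandas 2.3.3, scipy 1.17.1 and numpy 2.4.6 under Python 3.11.15.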

Additional observations from a re-analysis of the deposited data

How the results depend on the processing

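Of 40 alternative values, 1 reversed its sign and 10 counted as moved. The other 29 were counts within 1.5 times the original (24 to 40 peaks against 34 and 36, and 22 to 30 overlaps against 31 and 28) or still 0, shares inside the original 95% interval (33.3% to 46.0%), or medians equal to 2 decimals. The median log2 ratio of 0.12 over matched peaks was 0.04 after subtracting the median of all matched peaks, 0.18 with 1 peak per gene and, chosen after seeing the data, 0.14 with overlapping peaks of a gene counted once. It reversed to −0.01 with a fold enrichment of at least 4 in both genotypes, which leaves out the weaker peaks, so the group has no stable direction. At p below 0.05, peaks higher in Tyrobp-/- mice went from 0 to 1 without a fold change threshold. Lower peaks went from 0 to 2 at a fold change of 1.5, to 5 without a threshold and to 2 after centring on the median of all rows. The median log2 fold change of −0.35 was −0.77 after centring, −0.39 over rows with p below 0.05 and −0.21 by position, the last chosen after seeing the data. Leaving out a replicate could not be run, because peaks were called on pooled replicates. No paired analysis was possible because each peak has 1 value per genotype over the pooled replicates. Reads per peak are unknown, so low fold enrichments carry no interval.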
